A study of Mus musculus with 2 samples.

Results

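The insulin-like growth factor (IGF) system was followed in 2 single-cell RNA libraries of Lewis lung carcinoma (LLC) tumors through 8 genes: the ligand Igf1, its receptor Igf1r, and the binding proteins Igfbp2, Igfbp3, Igfbp4, Igfbp5, Igfbp6 and Igfbp7. The 8 genes were taken by symbol from the 32285 genes of the count tables, and their UMIs (RNA molecules, each counted once) were summed over cell classes gated on other genes. In these tumors Igf1 and Igfbp5 were highest in fibroblasts, Igfbp3 and Igfbp7 in endothelial cells (ECs) and Igf1r, per UMI, in granulocytes. Cancer cells held most molecules of Igf1r, Igfbp4 and Igfbp6, and Igfbp2 was nearly absent.

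Tumors grew in C57BL/6 mice in which Gucy1b1, a subunit of soluble guanylate cyclase (sGC), the receptor of nitric oxide, was floxed on both alleles. The sGC-Ctr mice were Gucy1b1 flox/flox, and the sGC-∆PC mice were Cspg4-CreERT2::Gucy1b1 flox/flox (a label spells the gene Gucyc1b1), in which Cre is made wherever the Cspg4 (NG2) promoter is active, pericytes among them. Both groups were given tamoxifen, 5 doses, when they were 4 weeks old, and LLC cells under the skin when they were 8 weeks old, and the tumors were 2 weeks old at dissection. Each condition is 1 library of cells mixed from 3 tumors, so condition and library cannot be told apart, no test between them was possible, and every interval given is a 95% interval for counting error alone.

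IGF1 is a secreted growth factor that acts through the receptor tyrosine kinase IGF1R, which feeds the PI3K-AKT and MAPK routes. Most IGF outside cells is held by IGF binding proteins, which carry it, keep it from the receptor or release it near cells when proteases cut them. Fibroblasts and macrophages are known sources of IGF1 in tumors, and IGFBP3 and IGFBP7 are known as genes of tumor vessels.

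Positions are those of GENCODE vM21 on GRCm38. Igf1 lies on chromosome 10 (87858265 to 87937042, plus strand), Igf1r on chromosome 7 (67952827 to 68233668, plus), Igfbp4 on chromosome 11 (99041244 to 99054392, plus), Igfbp6 on chromosome 15 (102144362 to 102149511, plus) and Igfbp7 on chromosome 5 (77349240 to 77408041, minus). Igfbp2 (72824503 to 72852474, plus) and Igfbp5 (72857932 to 72874884, minus) are neighbors on chromosome 1, 5457 bases apart, and Igfbp3 (7206086 to 7213923, minus) lies 3539 bases from Igfbp1 on chromosome 11. Neighbors differed: Igfbp5 was read in fibroblasts and Igfbp2 in almost no cell, and Igfbp3 was read in ECs while none of the 8 compared classes held an Igfbp1 UMI.

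The 250 bases before the RefSeq start of Igfbp3, Igfbp7 and Igfbp5 are shown because these binding proteins were each concentrated in 1 to 3 classes. They come from the RefSeq promoter table of GRCm38.p6, in which all 8 genes were matched, and run 5′ to 3′ on the strand of the gene. Igfbp3 is chr11:7213924-7214173 (minus strand, 73.2% G and C), Igfbp7 is chr5:77408046-77408295 (minus, 74%) and Igfbp5 is chr1:72874866-72875115 (minus, 58.8%). Capitals mark matches, on either strand and with no overlap between motifs, to GGGCGG (the core of a GC box), ACGTG (the core of a hypoxia response element), TATATA and TTTAAA (runs of A and T of the kind found in TATA boxes).
Igfbp3: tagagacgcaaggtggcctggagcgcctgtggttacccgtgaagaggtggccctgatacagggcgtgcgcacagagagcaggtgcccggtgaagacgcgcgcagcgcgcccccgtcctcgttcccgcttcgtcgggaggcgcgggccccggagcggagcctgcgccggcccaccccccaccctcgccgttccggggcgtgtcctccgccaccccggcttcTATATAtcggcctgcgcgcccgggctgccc
Igfbp7: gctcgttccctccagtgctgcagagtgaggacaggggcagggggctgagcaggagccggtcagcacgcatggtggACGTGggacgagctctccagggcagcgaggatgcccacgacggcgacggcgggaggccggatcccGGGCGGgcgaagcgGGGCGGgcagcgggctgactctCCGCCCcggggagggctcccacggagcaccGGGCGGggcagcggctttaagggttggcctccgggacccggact
Igfbp5: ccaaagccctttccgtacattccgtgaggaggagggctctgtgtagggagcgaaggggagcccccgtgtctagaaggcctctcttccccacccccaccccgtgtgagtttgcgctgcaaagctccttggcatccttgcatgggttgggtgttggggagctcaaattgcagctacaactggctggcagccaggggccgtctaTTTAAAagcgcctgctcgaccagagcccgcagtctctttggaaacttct
The Igfbp3 window holds 1 TATATA, which begins 30 bases before the start, and 5.25% of the 32851 windows of the table hold that motif. The Igfbp7 window holds 4 GGGCGG (a motif of 32.7% of windows) and 1 ACGTG (16.6%), and the Igfbp5 window holds 1 TTTAAA, which begins 49 bases before the start (12.1%). The matches are a description, since no binding was measured.

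The libraries hold 487859656 and 436352742 UMIs (sGC-Ctr and sGC-∆PC, the order of every pair of values here) in 15007 and 25631 barcodes, and the quality filter left 12220 and 22498 cells. A cell was given a class when the summed level of the class's markers reached 30% of a reference level and every other class stayed under 20% of its own, which placed 79.4 and 68.9% of cells. These were 7349 and 12913 cancer cells, 53 and 53 ECs, 30 and 24 pericytes, 95 and 151 fibroblasts, 1977 and 2151 macrophages, 128 and 141 granulocytes, 40 and 37 T cells and 20 and 21 dendritic cells, while natural killer cells (9 and 8) were too few to compare. Cells that passed a gate but were above the limit of another class, 7.63 and 14.6%, were left out of the classes. Every listed marker was detected in its class, and cancer-cell markers stood at 2.18 to 10.6% of their cancer-cell level in the other classes. Both follow in part from the gates, which chose cells by these same markers. Levels that cancer-cell RNA would carry, given below, rest on those markers and may be too low. Median depth differed by library, at 50885 and 13757 UMIs in cancer cells and 19799 and 4013 in fibroblasts. The libraries shared 98 barcodes, of which 38 had 1 class in both. As a check of the labels, Gucy1b1 had 52 and 10 UMIs in the gated pericytes, 143 and 46.1 CPM (UMIs per 1000000 UMIs of the class). The log2 ratio of CPM, sGC-∆PC over sGC-Ctr, was -1.63 (-2.77 to -0.64) for Gucy1b1 and -1.02 (-1.90 to -0.22) for Cspg4, the gene that drives Cre. Gucy1a1, the gene of the sGC alpha subunit, had 94 and 44 UMIs, a ratio of -0.35 (-0.90 to 0.18). The paper calls the Cspg4-CreERT2 mice knock-in, and the part of that allele in the Cspg4 ratio was not tested. The libraries count 3′ ends, and whether the part removed by Cre holds the counted end is not given in the sources used here.

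Where the molecules lay differed by gene. Cancer cells, 60.1 and 57.4% of kept cells, held 90.2 and 87.4% of the Igf1r UMIs, 89.4 and 88.8% of Igfbp4 and 90.7 and 88.7% of Igfbp6. Fibroblasts, 0.777 and 0.671% of cells, held 49.3 and 26.9% of Igf1 and 75.7 and 57.9% of Igfbp5. ECs, 0.434 and 0.236% of cells, held 71.7 and 53.7% of Igfbp3 and 45.5 and 35% of Igfbp7. Cells of more than one class held 22 and 34.7% of Igf1 and 25.5 and 25.5% of Igfbp7, which are therefore in no class below.

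**Figure D1:**
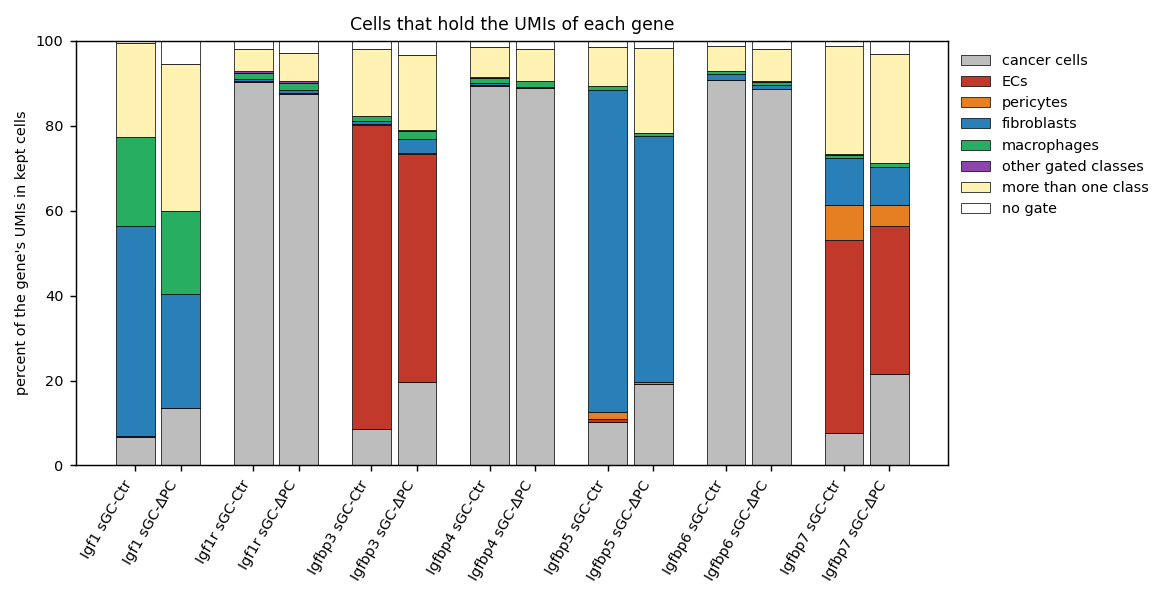
Percent of each gene's UMIs in kept cells (vertical axis) that lay in each gated class, in cells of more than one class or in cells of no gate, for 7 genes in the 2 libraries. Gray (cancer cells) fills most of the bars of Igf1r, Igfbp4 and Igfbp6, blue (fibroblasts) is the largest part of Igfbp5, and red (ECs) of Igfbp3 and Igfbp7.

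The ligand Igf1 had its highest level in fibroblasts. Its level there was 404 (377 to 432) and 295 (269.8 to 322) CPM, and 73.7 and 42.4% of fibroblasts held a UMI. When every cell was thinned to 2000 UMIs, with 3 and 44 shallower fibroblasts left out, the shares were 45.7 and 30.8%, against 0.0414 and 0.259% of cancer cells. Macrophages followed at 14.5 (13.1 to 16.1) and 17.6 (15.9 to 19.5) CPM, and cancer cells had 0.281 and 0.743 CPM. ECs held 4 and 0 UMIs, and pericytes, granulocytes, T cells and dendritic cells held 0 in both libraries. In pericytes a count of 0, taken as 3 UMIs, allows up to 8.22 and 13.8 CPM. The upper limits of the Poisson intervals there were higher, at 10.1 and 17.0 CPM. In sGC-Ctr the limit lay below the macrophage interval. In sGC-∆PC it lay within that interval, so pericytes could not be placed below macrophages in that library. The intervals of fibroblasts, macrophages and cancer cells did not overlap in either library.

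The receptor Igf1r was read in all 8 classes, but in T cells by only 5 and 9 UMIs. Dendritic cells held 5 and 5, of which 4 and 3 were in 1 cell. The level of Igf1r per UMI was highest in granulocytes. It was 430.3 (360.1 to 510.3) and 373 (313 to 440.1) CPM in granulocytes, 76.9 (76.1 to 77.8) and 75.4 (74.5 to 76.3) in cancer cells and 87.5 (73 to 104) and 99.5 (81.4 to 120.5) in ECs. Granulocytes are shallow cells, with medians of 2176 and 2635 UMIs, and 44 and 41 of them fell below the 2000 UMIs of the thinned comparison. Of the others, 47.6 and 43% held an Igf1r UMI after thinning, against 15.3 and 11.4% of cancer cells and 4.07 and 4.13% of macrophages. Macrophages had 20.4 and 22.6 CPM, where the cancer-cell RNA in the class, judged by cancer-cell markers, would carry 5.14 and 5.4 CPM, and in granulocytes it would carry 1.67 and 3.79 CPM. In sGC-Ctr the intervals of ECs, cancer cells, fibroblasts and pericytes overlapped with those of their neighbors in this order, and in sGC-∆PC those of fibroblasts and ECs did, and those of cancer cells and pericytes.

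Igfbp3, the main carrier of IGFs in blood, was read in ECs. Its level in ECs was 4423 (4316 to 4531) and 4154 (4032 to 4279) CPM. Of 53 ECs in each library 47 and 49 held a UMI, and the median EC had 32.4 and 33.9 UMIs per 10000 UMIs of the cell. The middle 50% of ECs ran from 11.8 to 61.7 in sGC-Ctr and from 14 to 45.1 in sGC-∆PC, so the libraries overlapped widely. Fibroblasts came next with 29.7 and 154 CPM, and pericytes had 24.7 and 96.7 CPM. At 2000 UMIs 79.2 and 93.9% of ECs held a UMI, 4.35 and 12.1% of fibroblasts, 1.19 and 8% of granulocytes and 1.12 and 1.49% of macrophages. The share in the fibroblasts of sGC-∆PC was not far above that in granulocytes of the same library, taken here as cells that should lack the gene.

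Igfbp7, a secreted protein of basement membranes that also binds insulin, was shared by ECs, pericytes and fibroblasts. ECs had 5059 (4945 to 5175) and 4684 (4555 to 4817) CPM, pericytes 3689.8 (3495 to 3892) and 3164 (2932 to 3409.7) and fibroblasts 881 (841 to 922) and 733 (693 to 775). These intervals did not overlap within a library, and the other classes had 3.05 to 24.1 CPM. Igfbp7 was in 100 and 98.1% of ECs and 100 and 95.8% of pericytes. At 2000 UMIs it was in 76.1 and 53.3% of fibroblasts and 0.661 and 1.09% of macrophages.

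Igfbp5, which binds the extracellular matrix as well as IGFs, was held by part of the fibroblasts. The class had 601 (569 to 636) and 425 (394 to 456) CPM, and 53.7 and 26.5% of its cells held a UMI. Those shares are not corrected for the lower depth of fibroblasts in sGC-∆PC. After thinning, they were 29.3% (20.3 to 39.8) and 18.7% (11.8 to 27.4), with overlapping intervals. In sGC-Ctr 1 cell held 399 of the 1254 UMIs, and in sGC-∆PC 1 cell held 309 of 736. Pericytes had 30 and 5 UMIs, of which 21 and 4 were in 1 cell. Cancer cells had 0.412 and 0.711 CPM, and no other class had more than 17 UMIs.

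Igfbp4 and Igfbp6 were the binding proteins that cancer cells held in quantity, although the summed fibroblasts had more of both per UMI in sGC-Ctr. Igfbp4, an inhibitory binding protein cut by PAPP-A, had 858 (856 to 861) and 834 (831 to 837) CPM in cancer cells, with a UMI in 98.7 and 96.7% of them. Fibroblasts had 967 (926 to 1011) and 413 (383 to 444) CPM, so fibroblasts led in sGC-Ctr and cancer cells in sGC-∆PC. The other 6 classes had 99.1 to 391 CPM, and cancer-cell RNA would carry 18.7 to 67 CPM of that. In dendritic cells of sGC-Ctr the level was 99.1 (65.3 to 144) CPM, where cancer-cell RNA would carry 64.9 CPM. Igfbp6, which prefers IGF2, had 176 (175 to 178) and 134 (133 to 135) CPM in cancer cells, 515 (484 to 546) and 231 (209 to 255) in fibroblasts and 251 (198 to 314) and 174 (135 to 222) in granulocytes. The intervals of fibroblasts and granulocytes overlapped in sGC-∆PC alone, and macrophages had 22.2 and 21.7 CPM, of which cancer-cell RNA would carry 11.8 and 9.58.

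Igfbp2, an inhibitory binding protein, had 10 UMIs in all kept cells. A cell of sGC-Ctr with no gate, with 17600 UMIs and 20.7% of the fibroblast reference, held 9 of them, and a cell above the limits of fibroblasts and pericytes held 1. No cell of sGC-∆PC held any.

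Of the 7 genes read in the classes, 6 had the same leading class by summed CPM in both libraries, and Igfbp4 did not. For Igfbp4 the median cell was higher in cancer cells than in fibroblasts in both libraries. The leading class was 27.8 and 16.7-fold above the next for Igf1 and 149 and 27-fold for Igfbp3, and only 2.05 and 1.32-fold for Igfbp6.

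**Figure D2:**
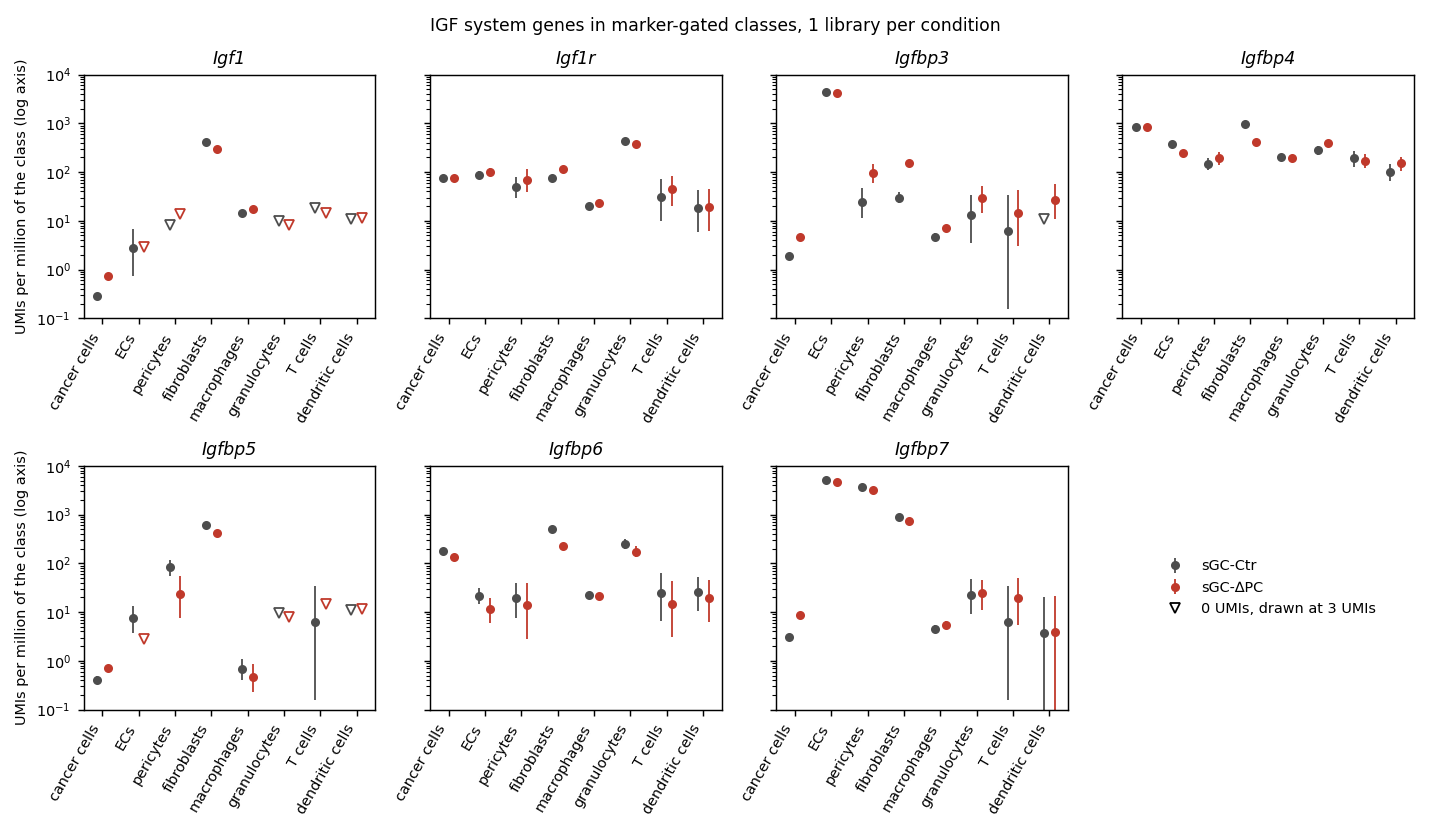
CPM (log axis) of 7 genes in 8 gated classes, with 95% Poisson intervals for counting error. Gray is sGC-Ctr and red sGC-∆PC, 1 library each, and open triangles mark classes with 0 UMIs, drawn at 3 UMIs. Igfbp3 stands at 4423 and 4154 in ECs and far lower elsewhere, Igf1 at 404 and 295 in fibroblasts, and Igf1r and Igfbp4 have UMIs in every class, in some of them few.

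A gene and a class were compared between libraries where they had at least 50 UMIs in both together, which held for 31 of 64 combinations. In 25 the levels were within 2-fold, in 4 the gene was at least 2-fold higher in sGC-∆PC, and in 2 at least 2-fold lower. All 6 were in fibroblasts and cancer cells, the classes with the most genes compared, 7 each. Of all genes, 1.21% were at least 2-fold higher and 1.3% lower in fibroblasts, and 4.39% and 0.137% in cancer cells. The shares in the other classes are given with each class below.

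In ECs 0 of 4 genes passed 2-fold, where 0.814% of all 5897 genes compared were that much higher and 0.695% that much lower. Igfbp3 (6523 and 4383 UMIs) had a log2 ratio of -0.09 (-0.15 to -0.03), Igfbp7 (7462 and 4942 UMIs) of -0.11 (-0.16 to -0.06) and Igf1r (129 and 105 UMIs) of 0.19 (-0.20 to 0.57). Igfbp4, with 369 and 250.2 CPM, had -0.56 (-0.78 to -0.34), and 4.68% of the genes compared in ECs lay lower. In pericytes 0 of 2 passed, beside 1.14% of genes higher and 2.11% lower. There Igfbp7 (3689.8 and 3164 CPM) had -0.22 (-0.36 to -0.09) and Igfbp4 (145 and 193 CPM) 0.41 (-0.21 to 1.02). Too few to compare, Igfbp3 had 9 and 21 UMIs in pericytes.

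In fibroblasts 1 of 7 genes was at least 2-fold higher and 2 at least 2-fold lower, and of all 7219 genes 1.21% were higher and 1.3% lower by that size. Igfbp4 had 2017 and 716 UMIs, a log2 ratio of -1.23 (-1.35 to -1.10), and 0.623% of genes lay lower. Igfbp6 had 1073 and 400 UMIs, a ratio of -1.16 (-1.33 to -0.99), and Igfbp3 had 62 and 267 UMIs, a ratio of 2.37 (1.97 to 2.80). Within 2-fold were Igf1 at -0.45 (-0.62 to -0.29), Igfbp5 at -0.50 (-0.64 to -0.37), Igfbp7 at -0.26 (-0.37 to -0.16) and Igf1r (75.3 and 116 CPM) at 0.62 (0.31 to 0.93). The median of the 7 was -0.45, and that of all genes -0.05.

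Single fibroblasts show what these sums rest on. For Igfbp4 the median fibroblast had 2.06 and 2.46 UMIs per 10000 and the highest 90.3 and 47.6, so the median was not lower where the sum was. For Igfbp6 both the median (2.49 and 0.984) and the highest cell (42.6 and 17.1) were lower in sGC-∆PC. For Igfbp3 the median was 0 in both libraries, 26 and 28 cells held a UMI, and 1 cell held 85 of the 267 UMIs of sGC-∆PC. Without the highest cell of each library the ratios were 2.14 (1.68 to 2.62) for Igfbp3, -1.20 (-1.33 to -1.07) for Igfbp4 and -1.04 (-1.22 to -0.86) for Igfbp6. After thinning, Igfbp4 was in 51.1 and 47.7% of fibroblasts and Igfbp6 in 51.1 and 31.8%. In the gated fibroblasts EC markers stood at 0.308 and 0.454% of their reference, macrophage markers at 1.31 and 2.06% and pericyte markers at 6.91 and 7.95%. The part of these markers in the ratios was not tested. When each library was clustered, the cluster with most gated fibroblasts had 180 and 941 cells, of which 11 and 268 were gated cancer cells. At 2000 UMIs per cell the ratio of Igfbp4 was -0.82, no longer past 2-fold, and that of Igfbp6 -1.39. With cells of more than one class kept, the ratios of Igfbp4 (-0.79) and Igfbp6 (-0.83) were both within 2-fold, and that of Igfbp3 was 1.02. With the limit on every other class lowered from 20% to 5%, 26 and 19 fibroblasts were left, with ratios of -2.56 (-2.96 to -2.19) for Igfbp4, -1.17 (-1.61 to -0.75) for Igfbp6, -1.02 (-1.40 to -0.65) for Igf1 and, with the opposite sign, 0.70 (0.50 to 0.89) for Igfbp5. Igfbp3 had too few UMIs there, and at 2000 UMIs per cell, to be compared.

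**Figure D3:**
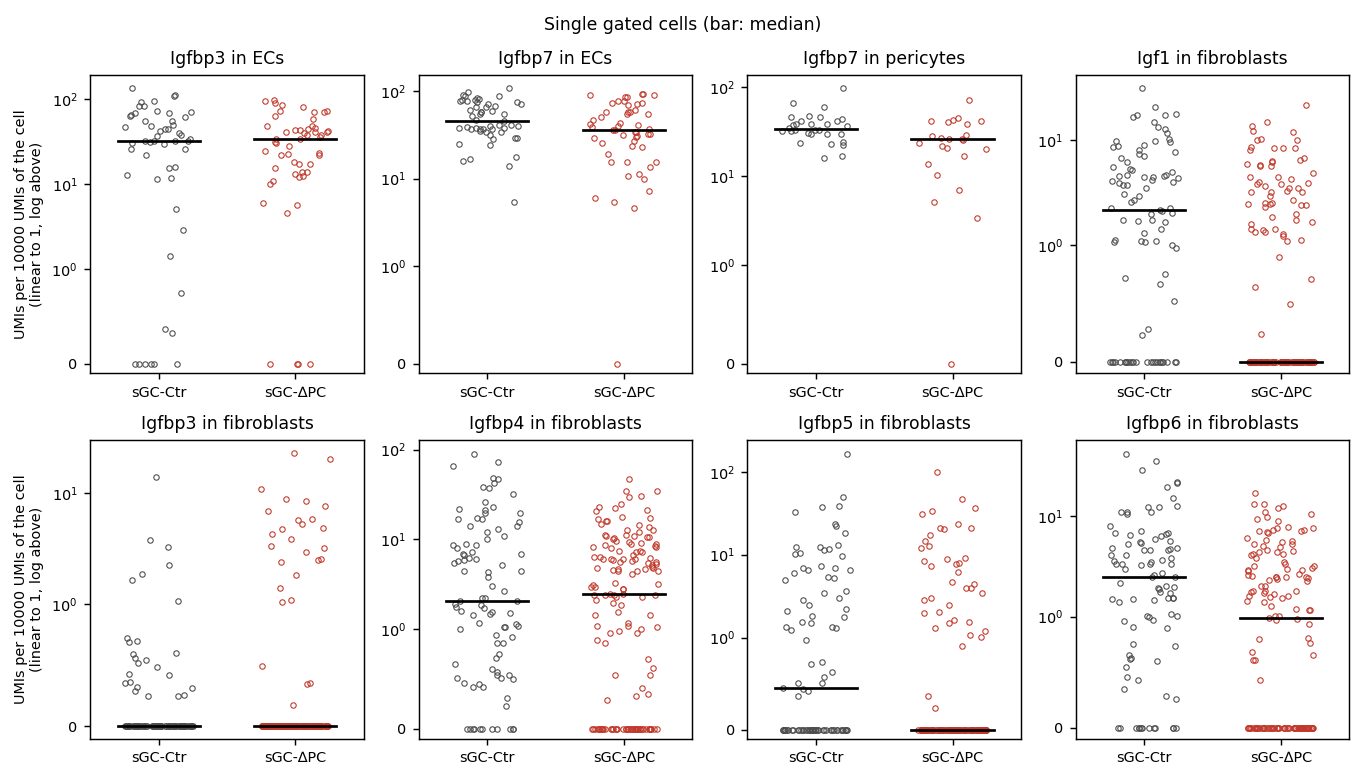
UMIs per 10000 UMIs of the cell (linear to 1, log above) in single ECs, pericytes and fibroblasts of sGC-Ctr (gray) and sGC-∆PC (red), with the median as a bar. Nearly all ECs and pericytes hold Igfbp7, most fibroblasts hold no Igfbp3, and the Igfbp5 of fibroblasts reaches 166 and 99.2 in the highest cells.

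In cancer cells 3 of 7 genes were at least 2-fold higher in sGC-∆PC and 0 at least 2-fold lower, where 4.39% and 0.137% of 15297 genes were. The genes that cancer cells hold in quantity were within 2-fold: Igfbp4 had a log2 ratio of -0.04 (-0.05 to -0.03), Igf1r of -0.03 (-0.05 to -0.0048) and Igfbp6 of -0.40 (-0.41 to -0.38), the last with 1.9% of genes lower. The 3 that were higher are genes with their main level in other classes. Igf1 had 115 and 256 UMIs (0.281 and 0.743 CPM), a ratio of 1.40 (1.08 to 1.73). Igfbp3 had 774 and 1606 UMIs (1.89 and 4.66 CPM), a ratio of 1.30 (1.18 to 1.43), and Igfbp7 1249 and 3032 UMIs (3.05 and 8.8 CPM), a ratio of 1.53 (1.43 to 1.63). In the same cells macrophage markers stood at 0.932 and 1.95% of their reference and fibroblast markers at 4.31 and 4.71%. EC markers stood at 0.632 and 0.685% and pericyte markers at 0.0934 and 0.139%. What part RNA of these classes has in the 3 ratios was not tested. When each library was clustered, the cluster with most gated ECs held 2 and 120 gated cancer cells. With the limit on every other class at 5%, 4631 and 6282 cancer cells were left and none of the 3 passed 2-fold: the ratios were 0.64 (0.12 to 1.16) for Igf1, 0.66 (0.49 to 0.84) for Igfbp3 and 0.60 (0.44 to 0.76) for Igfbp7.

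In macrophages 0 of 6 genes passed 2-fold, beside 0.749% of genes higher and 0.336% lower. Igf1 (361 and 370 UMIs) had a ratio of 0.28 (0.07 to 0.49), Igfbp3 (116 and 146 UMIs) of 0.57 (0.21 to 0.94) and Igfbp4 (4948 and 4144 UMIs) of -0.01 (-0.07 to 0.05). In granulocytes 0 of 3 did, beside 1.42% higher and 1.55% lower, with Igf1r at -0.21 (-0.56 to 0.15), Igfbp4 at 0.48 (0.09 to 0.88) and Igfbp6 at -0.53 (-1.03 to -0.03). Igfbp4 alone could be compared in T cells, at -0.14 (-0.88 to 0.60) beside 1.63% of genes higher and 2.5% lower, and in dendritic cells, at 0.60 (-0.14 to 1.36) beside 1.69% higher and 0.884% lower.

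**Figure D4:**
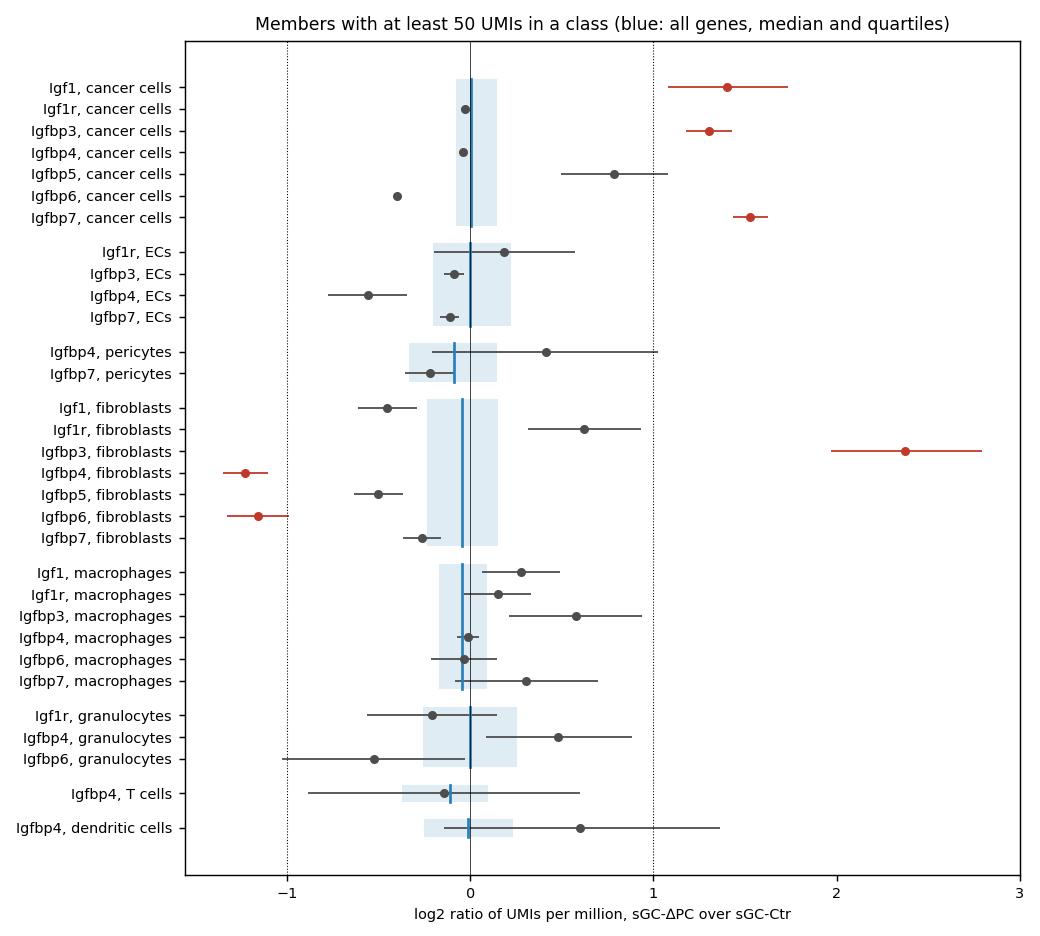
Log2 ratio of CPM, sGC-∆PC over sGC-Ctr, for the 31 combinations of gene and class with at least 50 UMIs, with 95% intervals for counting error. Dotted lines mark 2-fold, red points lie past it, and the blue line and band are the median and the middle 50% of all genes of the class. The 6 red points are Igf1, Igfbp3 and Igfbp7 in cancer cells and Igfbp3, Igfbp4 and Igfbp6 in fibroblasts.

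Within macrophages the Igf1 level differed by cell state. The 25% of macrophages with the highest summed level of resident-like genes (Mrc1, also a gate marker, Folr2, Ccl8, Cd163, Lyve1 and Pf4) had 35 against 6.19 CPM in sGC-Ctr and 31.1 against 12.7 in sGC-∆PC, the others being the second value. The log2 ratios were 2.50 (2.17 to 2.84) and 1.30 (1.00 to 1.60). The 25% highest in MHC class II genes had 2.13 against 18.2 CPM in sGC-Ctr and 4.95 against 21.7 in sGC-∆PC, with ratios of -3.09 (-4.06 to -2.27) and -2.13 (-2.78 to -1.54). The 25% highest in monocyte-like genes (Ly6c2, Plac8, Ccr2 and Chil3) had 2.76 against 17.6 CPM in sGC-Ctr and 8.42 against 20.2 in sGC-∆PC, and those highest in lipid-handling genes (Gpnmb, Mmp12, Trem2 and Spp1) 18.5 against 13.3 CPM in sGC-Ctr and 21.1 against 16.6 in sGC-∆PC. Igf1 was thus higher in resident-like and lower in MHC class II high and monocyte-like cells in both libraries. Igfbp4 was also higher in resident-like cells, at 295 against 160.1 CPM in sGC-Ctr and 260.1 against 174 in sGC-∆PC. Over all macrophages MHC class II genes had 3416 and 5751 CPM and resident-like genes 2884 and 2321 CPM, and the part of these shifts in the Igf1 ratio was not tested.

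Within cancer cells Igfbp4 was higher in the 25% of cells highest in mesenchymal genes (Prg4, Aspn, Ptn, Fbn1 and the fibroblast gate markers Lum and Dcn), at 1275 against 732 CPM in sGC-Ctr and 1153 against 740.0 in sGC-∆PC. Igfbp6 was too, at 244 against 156 CPM in sGC-Ctr and 170.4 against 123 in sGC-∆PC. Both were lower in the 25% highest in the proliferation genes of G2/M (Mki67, Top2a, Cdk1, Ccnb1 and Cenpf), with 686 against 942 CPM in sGC-Ctr and 724 against 882 in sGC-∆PC for Igfbp4 and 116 against 206 CPM in sGC-Ctr and 103 against 147 in sGC-∆PC for Igfbp6. By hypoxia genes the differences were smaller, with 791 against 881 CPM in sGC-Ctr and 789 against 847 in sGC-∆PC for Igfbp4. The receptor Igf1r had log2 ratios of -0.19 to 0.07 over these 3 divisions in both libraries.

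**Figure D5:**
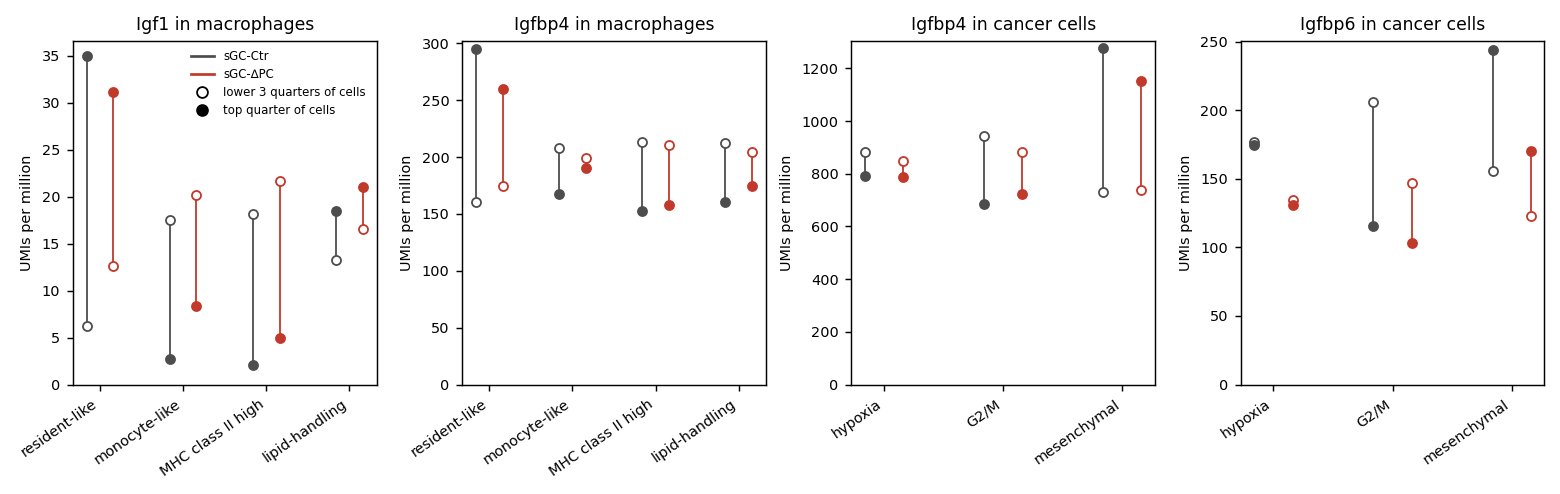
CPM in the 25% of cells highest in each gene list (filled points) and in the other cells (open points), for Igf1 and Igfbp4 in macrophages and Igfbp4 and Igfbp6 in cancer cells, in sGC-Ctr (gray) and sGC-∆PC (red). Igf1 in resident-like macrophages stands at 35 and 31.1, above the others, and in MHC class II high macrophages at 2.13 and 4.95, below them.

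Within fibroblasts the high range held 24 to 38 cells. The fibroblasts highest in adventitial-like genes (Pi16, Dpp4, Ly6c1 and Cd34) had 1747 against 724 CPM in sGC-Ctr and 529 against 351 in sGC-∆PC for Igfbp4 and 1081 against 338 CPM in sGC-Ctr and 248 against 222 in sGC-∆PC for Igfbp6. The adventitial-like genes themselves had 1018 and 487 CPM in all fibroblasts, lower in sGC-∆PC like Igfbp4 and Igfbp6, and their part in those ratios was not tested. Contractile fibroblasts (Acta2, Tagln, Thbs4 and Myl9) had less Igf1, 299 against 447 CPM in sGC-Ctr and 77 against 353 in sGC-∆PC. The contractile genes were also lower in all fibroblasts of sGC-∆PC, at 421 and 223 CPM, so the shift was not particular to adventitial-like genes. Antigen-presenting fibroblasts (Cd74, H2-Aa and H2-Ab1) had less Igfbp7, 503 against 1036 CPM in sGC-Ctr and 391 against 782 in sGC-∆PC. Fibroblasts high in Eng, the gene of endoglin, had 1220.3 against 399 CPM in sGC-Ctr and 816 against 222 in sGC-∆PC for Igfbp5, but without the cell that held most Igfbp5 in each library the values were 467 against 399 CPM in sGC-Ctr and 310.2 against 222 in sGC-∆PC.

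Around the 8 genes, 29 further genes were read. Besides genes of the pathway the list holds genes for proteins that bind Igf2 mRNA. It also holds the CCN genes and Esm1, listed for a binding-protein domain and not as parts of the pathway. The insulin receptor gene Insr was highest in ECs (109 and 98.6 CPM) and Igf2r, which clears IGF2, in pericytes (159 and 152 CPM), while the growth hormone receptor gene Ghr had 40.7 and 45.5 CPM in cancer cells and 39.8 and 62.3 CPM in fibroblasts. The ligand Igf2 had at most 24.7 CPM in a class, and Igfals, Igfbp1 and Igfbpl1 at most 3 UMIs. Among genes of proteases that cut binding proteins, Htra1 was highest in pericytes (337 and 286 CPM), and Htra3 (159 and 86.5 CPM) and Pappa (16.3 and 13.3 CPM) in fibroblasts. In fibroblasts 18 of the 29 were compared, and Stc1, whose product inhibits PAPP-A, was at least 2-fold higher (35.5 and 126 CPM, log2 ratio 1.83 (1.44 to 2.23)) and Ccn2 lower (21.6 and 9.23 CPM, -1.23 (-2.15 to -0.37)). In ECs 11 were compared, with Esm1 (79.3 and 261 CPM, 1.72 (1.40 to 2.04)) and Ccn2 (60.3 and 158 CPM, 1.39) higher and Htra1 (46.8 and 19.9 CPM, -1.23 (-2.01 to -0.51)) lower. In macrophages Kazald1 alone of 15 passed (1.93 and 5.05 CPM, 1.39), and in cancer cells Esm1, Stc2 and Adam12 of 24, all higher and at most 0.209 CPM. None of 3 passed in pericytes, and no gene of the list had 50 UMIs in granulocytes, T cells or dendritic cells. Of all genes compared, 1.21% were at least 2-fold higher and 1.3% lower in fibroblasts, and 0.814% and 0.695% in ECs. In macrophages these shares were 0.749% and 0.336%, in cancer cells 4.39% and 0.137% and in pericytes 1.14% and 2.11%.

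The genes most like each member except Igfbp2 over 16 values (8 classes in 2 libraries) were sought among 11997 genes by Pearson r of log2(CPM + 1). This is a description, since the values share libraries and gates. Nearest to Igf1 were Mdga1 (0.98), Tmem26 (0.98) and Gfra4 (0.98), to Igf1r Map1lc3b (0.91), Zfp281 (0.91) and Eif1 (0.89) and to Igfbp3 Bcl6b (0.91), Mmrn2 (0.89) and the gate marker Plvap (0.88). Nearest to Igfbp4 were Fosl1 (0.90), Fgfr1 (0.88) and Zfpm2 (0.87), to Igfbp5 Nkd2 (0.96), Igsf3 (0.96) and Mmp2 (0.95), to Igfbp6 Ogn (0.94), Vash2 (0.92) and the gate marker Dpt (0.85) and to Igfbp7 Fbxl7 (0.98), Atp8b1 (0.97) and Tmem47 (0.97).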

How the data were processed

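Single-cell RNA was read from 1 library per condition, each of cells mixed from 3 LLC tumors. The authors ran Cell Ranger 6.1.1 against mm10 and deposited raw UMI counts per gene and barcode, used here as they are. The members and all gene lists were chosen with earlier results of these data known, and the gate thresholds after marker levels, but not the members' levels, had been seen.

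Barcodes needed mitochondrial UMIs under 10% and log UMIs and log genes no more than 3 scaled median absolute deviations from the median of their library. The rule on deviations was failed by 1291 and 1 barcodes, so it removed almost none in sGC-∆PC. The study, which also left out clusters of mixed markers, reported nearly equal numbers of cells for the 2 conditions. Many sGC-∆PC cells kept here were therefore not among those of the study. The shallowest gated cells had 975 and 511 UMIs. Gates used 62 markers in 9 classes, none a member. The reference of a class was its median level over cells with at least 3 of its markers (2 for cancer cells) and 20% of the level of the 20 highest cells of each library. A cell needed 30% of the reference, and cells over 20% for another class were left out, which also stands for the treatment of doublets, since no doublet caller was run. Cells under 37.5% of the reference, near the gate, numbered 125 and 209 in cancer cells, 68 and 167 in macrophages and 1 and 11 in fibroblasts. The classes are rebuilt, so a difference from the study may come from that.

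Counts were summed per class and library and divided by all counts of the class. With 1 library per condition no test was run, and a fixed size of 2-fold at 50 UMIs took its place, with exact Poisson, binomial and conditional 95% intervals. In ratios over all genes a count of 0 took 0.5, and the level that a 0 allows is 3 UMIs. Thinning drew 2000 UMIs per cell. All members were described in every class. Genes of the wider list were named where past 2-fold or to describe their role, the latter after their values were seen. For each member except Igfbp2, 3 like genes were named. The ratio intervals, the 2-fold rule and the gates were run on counts simulated from the class sums. Cells of a class did not differ there beyond counting error, so the run cannot show how these steps hold where they do. Thinning, clusters and high ranges were not simulated. Tools were Python 3.11.15, scipy 1.17.1 with numpy 2.4.6, and for clusters igraph 0.11.9, leidenalg 0.10.2 and scikit-learn 1.9.0.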

Additional observations from a re-analysis of the deposited data

How the results depend on the processing

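Alternatives moved the gate, the limits on other classes, the filter, the depth, the scaling and the definition of cells. Of 307 recomputed log2 ratios 239 stayed within the first interval and 68 moved beyond it. The leading class was shared by 6 of 7 genes in each alternative but Leiden clusters, where it was 2, since the clusters with the ECs, pericytes, fibroblasts, T cells and dendritic cells of sGC-∆PC held more gated cancer cells and took that name. The 4 combinations at least 2-fold higher became 7 (of 35) with cells of more than one class kept, 2 (of 21) at 2000 UMIs per cell, 8 (of 46) where 1 UMI in each library was enough and 0 (of 26) with the limit on every other class at 5%. The 2 lower became 0 with cells of more than one class kept and 0 (of 17) with Leiden clusters. They became 1 at 2000 UMIs per cell and 4 with the limit at 5%. The share of all genes past 2-fold was taken in the main setting alone. These counts therefore show how the calls depend on processing and are no result about the members. In fibroblasts Igfbp3 passed 2-fold in 8 of 8 alternatives (1.02 to 2.97) and could not be compared with Leiden clusters, at 2000 UMIs per cell or with the limit at 5%, while Igfbp4 passed it in 8 of 10 alternatives (-2.56 to -0.79) and Igfbp6 in 9 of 10 alternatives (-1.39 to -0.83). In cancer cells Igf1 passed it in 9 of 10 alternatives (0.64 to 3.42), Igfbp3 in 10 of 11 alternatives (0.66 to 3.52) and Igfbp7 in 10 of 11 alternatives (0.60 to 4.00), and the limit at 5% was the one under which they did not. Leiden clusters count among those passed, although there the cancer cells of sGC-∆PC took in the clusters of ECs, pericytes and fibroblasts. A higher level was built into that alternative, so it says nothing on these genes. Scaling, and the omission of the highest cell or of shared barcodes, reuse nearly the same counts. Beyond the clusters' names, the cause was not tested. The limit at 5%, the omission of the highest cell and that of shared barcodes were chosen after seeing the data, and the last 2 changed none of the counts they were run on. No paired analysis was possible because each condition has 1 library. Thinning left out 3 and 44 fibroblasts and 9 and 406 macrophages, and 3 UMIs are 8.22 and 13.8 CPM in pericytes.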
